A study of Mus musculus with 20 samples.

Results

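The cytosolic ribosome is built from ribosomal RNA and a large set of ribosomal proteins, each encoded by its own gene and named for the large (Rpl) or small (Rps) subunit. Of the 55493 gene rows of the expression table, 89 carried a ribosomal protein symbol, 53 of the large and 36 of the small subunit. They were taken by symbol alone: Rpl or Rps followed by a number, with an optional a, l, x or y and a further number, plus Rplp0, Rplp1, Rplp2 and Rpsa. In GENCODE M21 83 of them are protein-coding and 6 are processed pseudogenes, which are copies of a messenger RNA inserted back into the genome. Mitochondrial ribosomal proteins, Fau and Rack1 do not have such symbols and were handled apart.

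Most mammalian ribosomal protein mRNAs begin with a tract of C and U bases, the terminal oligopyrimidine or TOP tract, through which mTORC1 and LARP1 control their translation according to nutrient supply. Fasting is known to lower liver protein and ribosome content. RNA sequencing of this kind measures the mRNA level of these genes and not the amount of ribosomes or their translation.

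RNA came from liver tissue of female mice, 15 weeks of age, of the C57BL/6N strain, which carried either both functional copies of Plin2 (Plin2+/+) or none (Plin2-null, Plin2-/- in the design text), and Plin2 encodes perilipin 2, a protein on the surface of lipid droplets. There were 20 libraries in 4 groups of 5: Plin2-null fasted, Plin2+/+ fasted, Plin2-null fed and Plin2+/+ fed, where fasted means 24 h without food and fed means on chow. The labels of the 10 Plin2-null libraries state the feeding state alone, and their genotype was read by elimination from the design text. How the Plin2 allele was made, and which litters the mice came from, is not stated by the labels. As no label ties a library to an animal, a p-value reflects only how far these samples scatter, some of which may be technical.

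Plin2 averaged 90.5 ± 22.6 CPM, counts scaled to library size, in Plin2-null fasted and 1494 ± 240.1 CPM in Plin2+/+ fasted livers (SD, n = 5 each), and 19.7 ± 6.96 CPM in Plin2-null fed and 260.3 ± 58.2 CPM in Plin2+/+ fed livers (SD, n = 5 each). The genotypes did not overlap in either feeding state (exact two-sided permutation p = 0.00794 in each, the smallest that 5 against 5 can give). Libraries held 25506471 to 65579038 counts, and all 8 hepatocyte markers examined were detected in every library. The share of counts on a ribosomal RNA-like gene ran from 4.88% to 24.8%, highest in Plin2-null fasted library 3. In 3 libraries log2 CPM fell most with the GC content of genes (Pearson's r of each library's deviation with GC over 7734 genes, which are not independent): Plin2+/+ fasted 2 (-0.447), Plin2+/+ fasted 1 (-0.442) and Plin2-null fed 4 (-0.345). The r was most positive in Plin2-null fasted 4 (0.371) and Plin2+/+ fasted 5 (0.259), and in Plin2-null fasted libraries it ran from -0.0137 to 0.371. The counts and medians of the members and of the main gene lists are also given without the 3 libraries of most negative r. Libraries of positive r were kept in that setting.

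Sequences around the RefSeq start are given for 6 members on which the comparisons below turn, with their longest run of C and T. Each line gives 15 bases before and 15 from the start (GRCm38.p6, 5′ to 3′, gene strand), and capitals mark the longest run of C and T.
Rplp2 (chr7:141447636-141447665, plus strand): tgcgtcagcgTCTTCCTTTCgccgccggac
Rps28 (chr17:33824548-33824577, minus strand): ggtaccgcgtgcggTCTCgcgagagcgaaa
Rpl5 (chr5:107900513-107900542, plus strand): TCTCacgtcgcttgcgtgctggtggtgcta
Rps27 (chr3:90213634-90213663, minus strand): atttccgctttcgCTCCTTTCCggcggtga
Rps2 (chr17:24720048-24720077, plus strand): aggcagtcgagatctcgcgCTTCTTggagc
Rps27l (chr9:66946071-66946100, plus strand): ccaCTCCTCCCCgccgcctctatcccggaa
Rplp2, Rps27 and Rps27l hold a run of 8 or more pyrimidines in this window, while the longest run of Rpl5, Rps2 and Rps28 is shorter. The marked runs of Rps27l and Rpl5 lie wholly before the RefSeq start. A run of at least 8 C or T between 20 bases before and 30 after the start was found in 32 of the 64 members with a RefSeq promoter entry, against 18.8% of 27025 genes. RefSeq starts can lie some bases from the start used in liver, and a window with no such run does not show that the mRNA lacks the tract. Nor does a run in the window show that the mRNA begins with the tract.

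Promoter sequences were searched for a few short motifs in the 300 bases from 250 before to 50 after the start, on both strands. CCGGAAG, the core of the ETS factor motif that GABPA binds, stood in 39.1% of the 64 members and 9.1% of all 27025 genes. GGGCGG, an SP1-type GC box, stood in 59.4% of members and 35.9% of genes, and AAGATGGC, a core of the YY1 motif, in 7.8% of members and 2.9% of genes. TATAAA on the gene strand within 40 bases before the start was found in 1.6% of members and 2.5% of genes. The promoter of Rps27, which had the largest rise on fasting in Plin2+/+ livers among members that passed the test, holds the YY1-type match, shown in capitals in the 250 bases before its start (chr3:90213649-90213898, minus strand, GRCm38.p6).
Rps27: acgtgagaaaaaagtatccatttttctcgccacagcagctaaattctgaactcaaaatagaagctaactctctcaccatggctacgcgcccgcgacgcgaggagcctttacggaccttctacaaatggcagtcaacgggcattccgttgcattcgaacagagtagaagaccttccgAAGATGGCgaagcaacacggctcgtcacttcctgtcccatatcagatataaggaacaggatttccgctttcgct
These matches describe letters and do not show that a factor binds.

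Levels between genes were compared in TPM, which divide counts by gene length and bring each library to the same sum. Together the 89 genes held 0.886% to 1.61% of all TPM in a library. Their summed TPM was 12599 ± 2723 in Plin2-null fasted, 11877 ± 1573 in Plin2+/+ fasted, 11706 ± 1669 in Plin2-null fed and 12554 ± 397 in Plin2+/+ fed livers (SD, n = 5 each), so the groups overlapped. The ratio of the summed TPM of large to small subunit genes ran from 1.07 to 1.32 over the 20 libraries. In Plin2+/+ fasted libraries 1 to 4 it was 1.08, 1.07, 1.14 and 1.13, below every library of the other groups, and in library 5 it was 1.24. The group means were 1.25 ± 0.0352 in Plin2-null fasted, 1.13 ± 0.0696 in Plin2+/+ fasted, 1.26 ± 0.0457 in Plin2-null fed and 1.26 ± 0.0375 in Plin2+/+ fed livers (SD, n = 5 each).

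Among the highest members were Rps3a1 (ENSMUSG00000028081, chr3:86137940-86142702 in GRCm38) and Rpl4, at 859 and 684 TPM on average over the 20 libraries. Rps3a1 ranged from 575 to 1075 TPM between libraries and Rpl4 from 475 to 852 TPM, so their ranges overlapped. The lowest above 10 TPM were Rpl21 at 10.3 TPM, Rps3a3, a processed pseudogene of Rps3a1, at 11.8 TPM and Rpl22l1, a paralogue of Rpl22, at 20.4 TPM. The median over the coding members was 105 TPM.

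Ribosomal protein genes have many pseudogene copies, so reads can be split between near-identical genes. In 49 coding members more than 50% of all 50-base stretches of the coding transcript of middle length were shared with another gene. Rps10 and Rpl24, each a single essential subunit gene, had only 1.43 and 1.09 TPM, and 64.7% and 81.7% of their 50-base stretches were shared; the pseudogene Rps10-ps2 held 26285 counts over the 20 libraries against 1106 on Rps10. Counts of such members are uncertain as measures of the gene. Across the 82 coding members with a mean above 0 TPM, level and share of shared sequence were nearly unrelated (Spearman's rho 0.064, across genes, which are not independent).

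**Figure D1:**
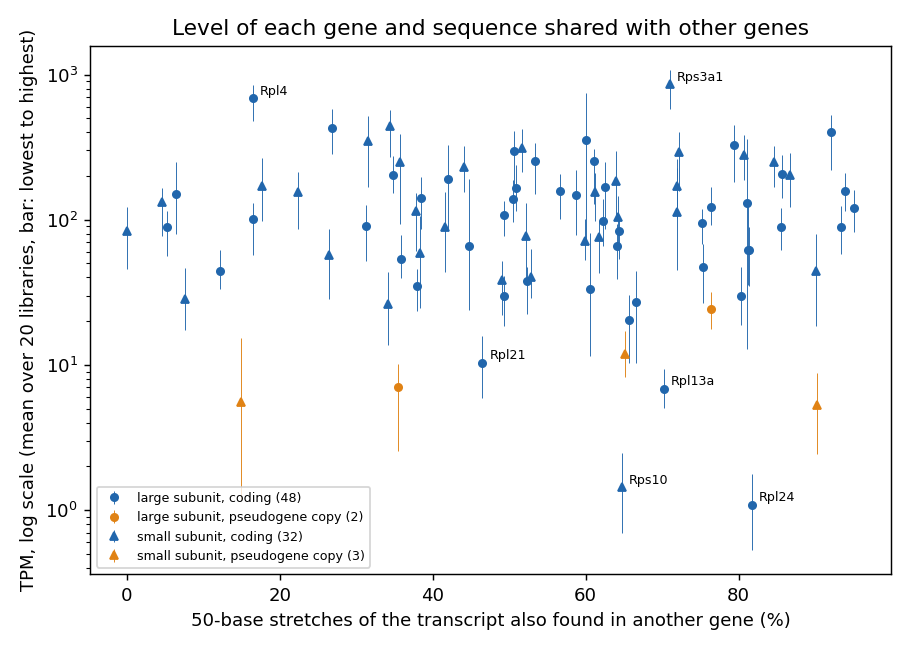
Mean TPM over the 20 libraries (log scale, bars from the lowest to the highest library) of members with a mean above 0.5 TPM, against the share of 50-base stretches of the transcript found in another gene. Rps3a1 and Rpl4 stand highest, and Rps10 and Rpl24 lie near 1 TPM with more than 50% of their sequence shared.

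Fasting was compared with feeding within each genotype. In Plin2-null livers ribosomal protein mRNAs were mostly higher after the fast, by less where libraries were scaled by their size alone. Of the 85 members with enough counts to test, 39 rose and 0 fell (edgeR's quasi-likelihood test, Benjamini-Hochberg adjusted p under 0.05 over 16312 genes), where 18.0% of all genes tested rose and 18.1% fell. By an unadjusted p under 0.05, 52 members were higher and 0 lower, against 22.6% and 22.8% of all genes. DESeq2 called 43 members higher and 0 lower, but these shares are edgeR's and none was taken from DESeq2. The members' median log2 fold change was 0.40 against -0.01 over all genes, and 79 of 85 lay above 0, against 49.6% of all genes. In 28 members the fasted libraries all exceeded the fed ones, which held for 12.6% of all genes, and in 0 all lay below, against 11.8%. The other 4 members (Rpl10l, Rpl39l, Rpl3l and the pseudogene Rps12l1) had too few counts to test in any comparison.

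These values come from counts scaled by the trimmed mean of M-values (TMM), which takes most genes as unchanged. With library size alone the all-gene median moved to -0.21 and the members' median to 0.19, with 66 of 85 above 0, and 4 rose and 0 fell. On log2(TPM + 1), tested with limma, the all-gene median was -0.18 and the members' median 0.11, and 2 rose (Rplp2 among them) while 3 fell (Rpl10, Rps27l and Rpl35a). Under each of these scalings the members' median stood above that of all genes. The shares of all genes that rose or fell were taken from edgeR's fit with TMM alone, so these counts have none beside them. In bulk liver, fewer cells of a type and less RNA per cell cannot be told apart.

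By subunit, 22 of 50 large and 17 of 35 small subunit members rose, with median log2 fold changes of 0.38 and 0.43. Rplp2 (ENSMUSG00000025508, chr7:141447370-141451585), one of the acidic stalk proteins that recruit translation factors to the large subunit, rose most among members above 10 TPM. In the order of replicates 1 to 5, it had 37.1, 33.4, 70.2, 61 and 33.7 CPM in Plin2-null fasted and 25, 25.9, 19.5, 8.28 and 17.8 CPM in Plin2-null fed livers. Every fasted library lay above every fed one, with libraries 3 and 4 highest among the fasted and library 4 lowest among the fed (log2 fold change 1.28 ± 0.35 (SE), adjusted p = 0.0082).

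Rps28 (ENSMUSG00000067288, chr17:33819027-33824562), a small subunit protein near the path of the mRNA, had 58.7, 65.5, 76, 81.4 and 80.55 CPM in Plin2-null fasted and 42.5, 52.8, 49.9, 21.5 and 39 CPM in Plin2-null fed livers. Its groups did not overlap (log2 fold change 0.82 ± 0.26 (SE), adjusted p = 0.0199).

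Rps13, an early-binding small subunit protein, had 34.4, 32.1, 45.3, 42.9 and 36.3 CPM in Plin2-null fasted and 28.2, 28.5, 18.9, 13 and 24.4 CPM in Plin2-null fed livers. The lowest fasted value was above the highest fed value (log2 fold change 0.76 ± 0.24 (SE), adjusted p = 0.0178). Without Plin2-null fasted library 3 its adjusted p was 0.054. Of these strong responses Rplp2 and Rps28 kept an adjusted p under 0.05 when any single library was left out.

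The smallest changes that passed the test were those of Rps3, Rpl14, Rpl9 and Rpl22. Rpl22 (ENSMUSG00000028936), an RNA-binding large subunit protein, had 106, 125, 100.2, 103 and 122 CPM in Plin2-null fasted and 80.5, 95.6, 84.9, 88.4 and 93.7 CPM in Plin2-null fed livers, again without overlap (log2 fold change 0.33 ± 0.09 (SE), adjusted p = 0.00673). Rpl14 had 69.3 to 85.7 CPM in Plin2-null fasted and 51.4 to 67 CPM in Plin2-null fed livers (log2 fold change 0.32 ± 0.10 (SE), adjusted p = 0.013). Rps3, which lies at the entry of the mRNA channel, had 233, 266, 212, 223 and 285 CPM in Plin2-null fasted and 201, 227, 190.1, 170.0 and 192 CPM in Plin2-null fed livers, where fasted libraries 3 and 4 lay below fed library 2 (log2 fold change 0.31 ± 0.10 (SE), adjusted p = 0.0154). Without fasted library 5 its adjusted p was 0.057. Rpl9 overlapped as well, with 90.3 to 140.2 CPM in Plin2-null fasted and 82.4 to 99.4 CPM in Plin2-null fed livers (log2 fold change 0.33 ± 0.12 (SE), adjusted p = 0.0323), and 6 of the 10 libraries, each left out alone, took its adjusted p above 0.05.

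In Plin2+/+ livers the same comparison gave members of either direction. Of the 85 members 12 rose and 3 fell, against 20.9% of all genes that rose and 21.7% that fell. DESeq2 called 13 higher and 4 lower, with no share of all genes taken from its fit. The median log2 fold change was 0.08 against -0.01 over all genes, with 51 members above 0 against 49.5% of all genes, and it was -0.08 with library size alone, where the all-gene median was -0.16, and -0.09 on log2(TPM + 1), where it was -0.10. In 6 members every fasted library lay above every fed library, against 13.2% of all genes, and in 0 all lay below, against 13.5%. At an unadjusted p under 0.05, 18 were higher and 4 lower, against 24.8% and 25.2% of all genes. Of large subunit members 6 of 50 rose and 1 fell, and of small subunit members 6 of 35 rose and 2 fell. The count of members that rose was 7 without Plin2+/+ fasted library 3, 7 without Plin2+/+ fed library 5, and between 8 and 17 without any other single library. The shares of all genes are from the fit on all 20 libraries and do not apply to these counts.

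Rps27 (ENSMUSG00000090733, chr3:90212522-90213651), a zinc-finger protein of the small subunit, rose most among the members that passed the test. Rps27a had a larger log2 fold change but did not pass (1.00 ± 0.48, SE, adjusted p = 0.101). Rps27 had 111, 104, 101, 110.2 and 77 CPM in Plin2+/+ fasted and 65.6, 70.2, 81.6, 50.4 and 52.4 CPM in Plin2+/+ fed livers. Only fasted library 5 reached into the range of the fed libraries (log2 fold change 0.65 ± 0.17 (SE), adjusted p = 0.00371). Rpl5 (ENSMUSG00000058558, chr5:107900502-107909005), which carries the smallest rRNA of the large subunit into the ribosome, had 296, 367, 320.3, 314 and 274 CPM in Plin2+/+ fasted and 245, 204, 225, 203 and 195 CPM in Plin2+/+ fed livers. All fasted libraries were above all fed ones (log2 fold change 0.55 ± 0.10 (SE), adjusted p = 0.000153), and Rpl5 was the 1 member called higher by limma on log2(TPM + 1). Of the 50-base stretches of Rpl5 and Rps27, 93.8% and 64.0% were shared with another gene.

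Rps3a1, the most abundant member and a small subunit protein that contacts initiation factors, had 378, 455, 416, 417 and 354 CPM in Plin2+/+ fasted and 349.7, 293, 322, 295 and 285 CPM in Plin2+/+ fed livers, without overlap (log2 fold change 0.39 ± 0.10 (SE), adjusted p = 0.00256). Rpl22 rose as well, with 106 to 129 CPM in Plin2+/+ fasted and 83.4 to 106 CPM in Plin2+/+ fed livers (log2 fold change 0.33 ± 0.09 (SE), adjusted p = 0.00467). Rps27, Rpl5, Rps3a1 and Rpl22 kept an adjusted p under 0.05 when any single library was left out. Rpl9 (log2 fold change 0.36 ± 0.12 (SE), adjusted p = 0.017) lost the call without Plin2+/+ fasted library 2 (adjusted p = 0.052), and Rps3 (log2 fold change 0.25 ± 0.10 (SE), adjusted p = 0.0453) lost it without any of 8 libraries, each left out alone. Shared with another gene were 71.0% of the 50-base stretches of Rps3a1 and 93.3% of those of Rpl9, but 5.2% for Rpl22 and 4.5% for Rps3.

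Rpl3, Rps2 and Rps27l fell in Plin2+/+ livers. Rpl3 (ENSMUSG00000060036, chr15:80077791-80091868), which reaches toward the peptidyl transferase centre, had 99.4, 123, 208, 142 and 156 CPM in Plin2+/+ fasted and 209.9, 204, 201, 237 and 236 CPM in Plin2+/+ fed livers. Fasted libraries 1 and 2 were lowest and library 3 lay within the fed range (log2 fold change -0.58 ± 0.20 (SE), adjusted p = 0.0211). Without library 1 its adjusted p was 0.062 and without library 2 it was 0.057, and these are 2 of the 3 libraries whose values fell most with GC content.

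Rps2, a protein at the mRNA entry of the small subunit, had 48.7, 61.4, 81.8, 67.4 and 72.3 CPM in Plin2+/+ fasted and 78.4, 78.2, 82.3, 93.7 and 91.9 CPM in Plin2+/+ fed livers, with overlap (log2 fold change -0.36 ± 0.14 (SE), adjusted p = 0.0433). Rps27l (ENSMUSG00000036781, chr9:66946086-66949516), a paralogue of Rps27, had 45.3, 51.8, 46.9, 60.4 and 41 CPM in Plin2+/+ fasted and 61.8, 63.4, 64.6, 48.2 and 59 CPM in Plin2+/+ fed livers, where fasted library 4 lay among the fed values and fed library 4 among the fasted ones (log2 fold change -0.28 ± 0.11 (SE), adjusted p = 0.0421). Leaving out single libraries took Rps2 above the threshold in 6 cases and Rps27l in 7. Without Plin2+/+ fasted library 1 none of the 3 was called lower, and without the 3 libraries of most negative GC trend 0 members fell and 19 rose. No share of all genes was taken from these fits, so these counts do not set the members apart from other genes.

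**Figure D2:**
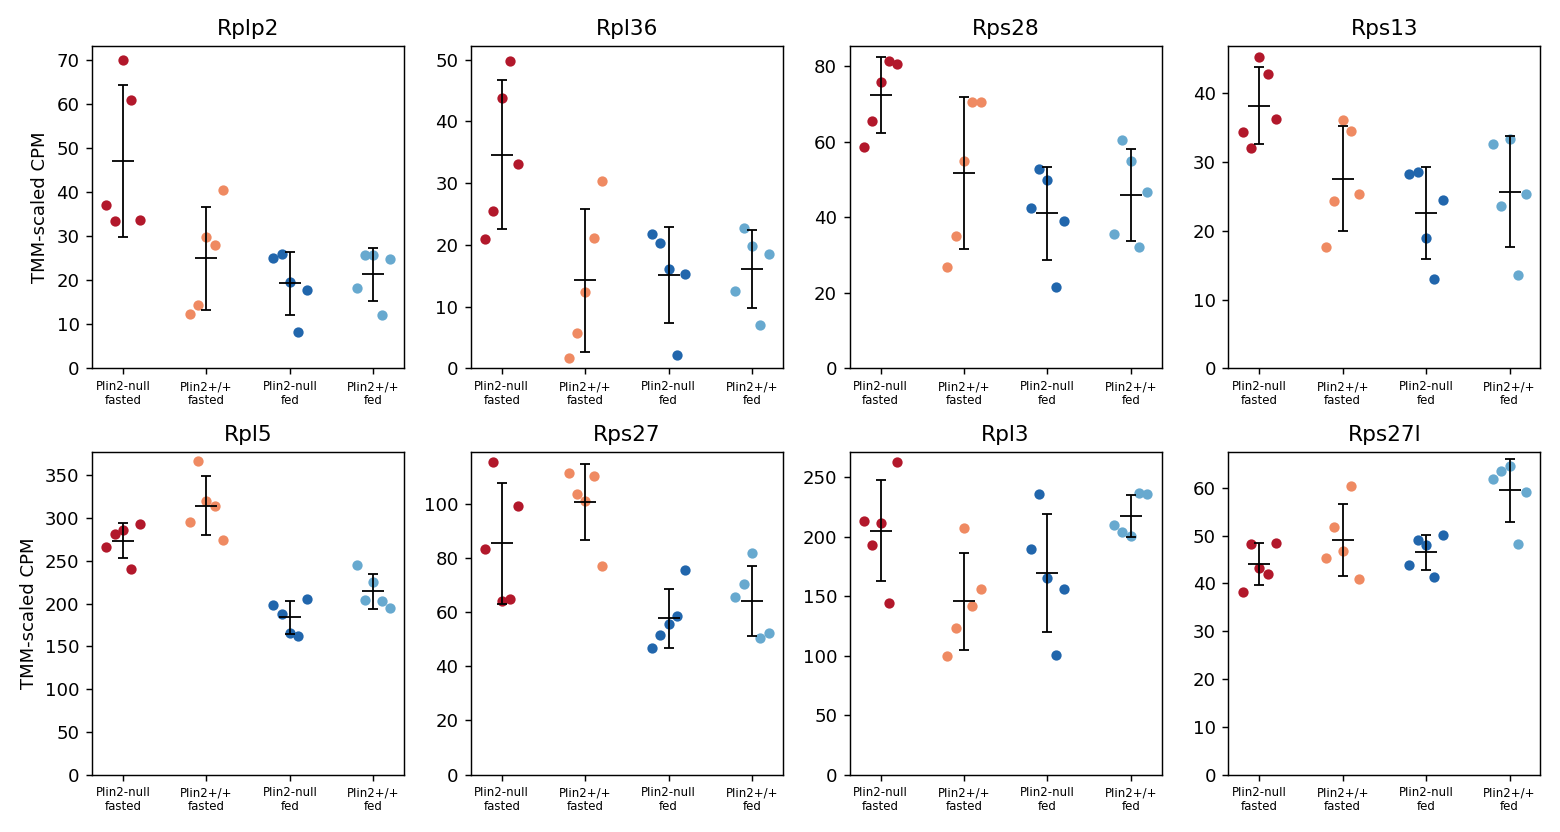
TMM-scaled CPM of 8 members in the 20 libraries by group, each point a library, with mean and SD (n = 5). Rplp2, Rps28 and Rps13 are higher in Plin2-null fasted than in Plin2-null fed livers without overlap, Rpl5 is higher on fasting in both genotypes, and Rpl3 and Rps27l are lower on average in Plin2+/+ fasted than in Plin2+/+ fed livers.

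The 2 fasting comparisons use different libraries and can be set side by side. Called higher in both were 11 members, 28.2% of the 39 in Plin2-null and 91.7% of the 12 in Plin2+/+ livers: Rpl5, Rpl9, Rpl13a, Rpl22, Rpl23, Rpl30, Rps3, Rps3a1, Rps6, Rps19 and Rps27. The exception among the 12 was Rps3a2, a processed pseudogene of Rps3a1 with 90.2% of its 50-base stretches shared. Rpl5 rose by 0.57 ± 0.10 in Plin2-null and 0.55 ± 0.10 in Plin2+/+ livers on the log2 scale (SE), and Rps3a1 by 0.38 ± 0.10 and 0.39 ± 0.10. Over the 85 members the log2 fold changes of the genotypes were weakly related (Pearson's r 0.12, across genes, which are not independent). In 49 members both were above 0, in 30 the change was above 0 in Plin2-null and below 0 in Plin2+/+ livers, in 2 the reverse, and in 4 both were below 0. The overlap of calls, Pearson's r and these counts were not computed over all genes. None of them is therefore shown to be particular to the members.

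**Figure D3:**
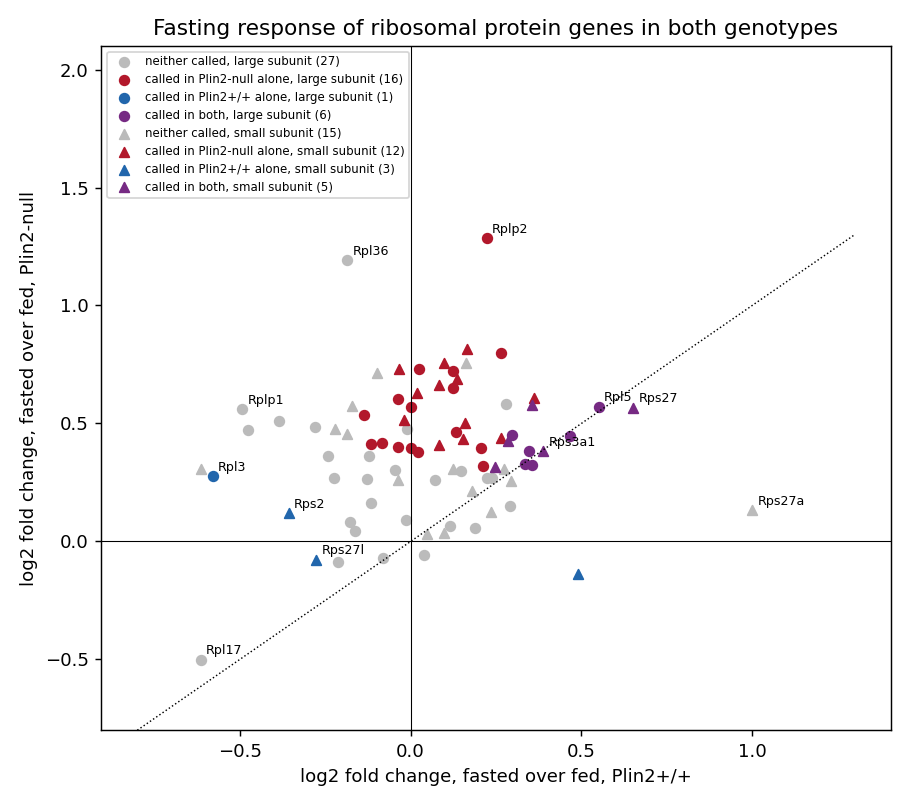
Log2 fold change of fasted over fed livers in Plin2-null mice against that in Plin2+/+ mice for the 85 members tested, TMM-scaled, coloured by the genotype in which the member was called, with the dotted line at equality. Of the 85 points 70 lie above the line, and 11 were called higher in both; with library size alone the medians moved to 0.19 in Plin2-null and -0.08 in Plin2+/+ livers.

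Whether the fasting response differed between genotypes was tested by the interaction, the response in Plin2-null minus that in Plin2+/+ mice. By edgeR and by DESeq2 0 members were higher and 0 lower, and edgeR called 0% of the 16312 genes. At an unadjusted p under 0.05 there were 21 members with a larger and 1 with a smaller response in Plin2-null livers, against 7.01% and 6.79% of all genes. The median interaction was 0.30 against 0.02 over all genes, and 70 of 85 members were above 0, against 51.8% of all genes. The largest among members above 10 TPM were Rpl36, a small large-subunit protein (1.38 ± 0.86, SE, adjusted p = 0.466), and Rplp2 (1.06 ± 0.49, adjusted p = 0.353), and the most negative were Rps27a (-0.87 ± 0.67, adjusted p = 0.549) and Rpl7 (-0.14 ± 0.18, adjusted p = 0.732). Rpl3 had the smallest p of the members (0.86 ± 0.28, edgeR's adjusted p = 0.247). The larger number of members called in Plin2-null livers is thus not shown to be a difference in response between genotypes.

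The interaction was smaller without the 3 libraries whose values fell most with GC content. Its median was 0.12 without them and 0.25 with each library's GC trend removed. The members' medians in these 3 libraries, of Plin2+/+ fasted and Plin2-null fed livers, were the lowest of their groups. Leaving them out therefore lowers the interaction whatever made them low, which was not tested. Plin2-null fasted library 4, of the most positive GC trend, was kept. Members whose GC content was at or above the members' median of 50.9% had a median interaction of 0.50, and those below it 0.17. Without Plin2-null fed library 4 alone the median was 0.25, and without Plin2+/+ fasted library 1 alone it was 0.24. Within Plin2-null livers 41 members rose and 0 fell without the 3 libraries, with a median of 0.32, and 36 rose with the GC trend removed, with a median of 0.34. No share of all genes was taken from these fits.

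Rpl36 varied most of all members tested, 28.3-fold between its highest and lowest library. It had 21, 25.4, 43.8, 49.8 and 33.1 CPM in Plin2-null fasted, 1.76, 5.75, 12.4, 21.2 and 30.3 CPM in Plin2+/+ fasted, 21.8, 20.3, 16.2, 2.2 and 15.3 CPM in Plin2-null fed and 12.5, 22.7, 19.8, 7.07 and 18.5 CPM in Plin2+/+ fed livers. Plin2+/+ fasted libraries 1 and 2 and Plin2-null fed library 4 were lowest, the same 3 libraries that fell most with GC content, and 60.8% of the bases of its transcript were G or C. The next widest ranges were those of Rplp1, another stalk protein (10.3-fold), the pseudogene Rps4l (9.6-fold, at most 5.23 CPM), Rplp2 (8.48-fold) and Rpl17 (6.45-fold). At the other end Rpl10, a large subunit protein that joins late in assembly, ranged 1.48-fold and Rpl31 1.5-fold.

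**Figure D4:**
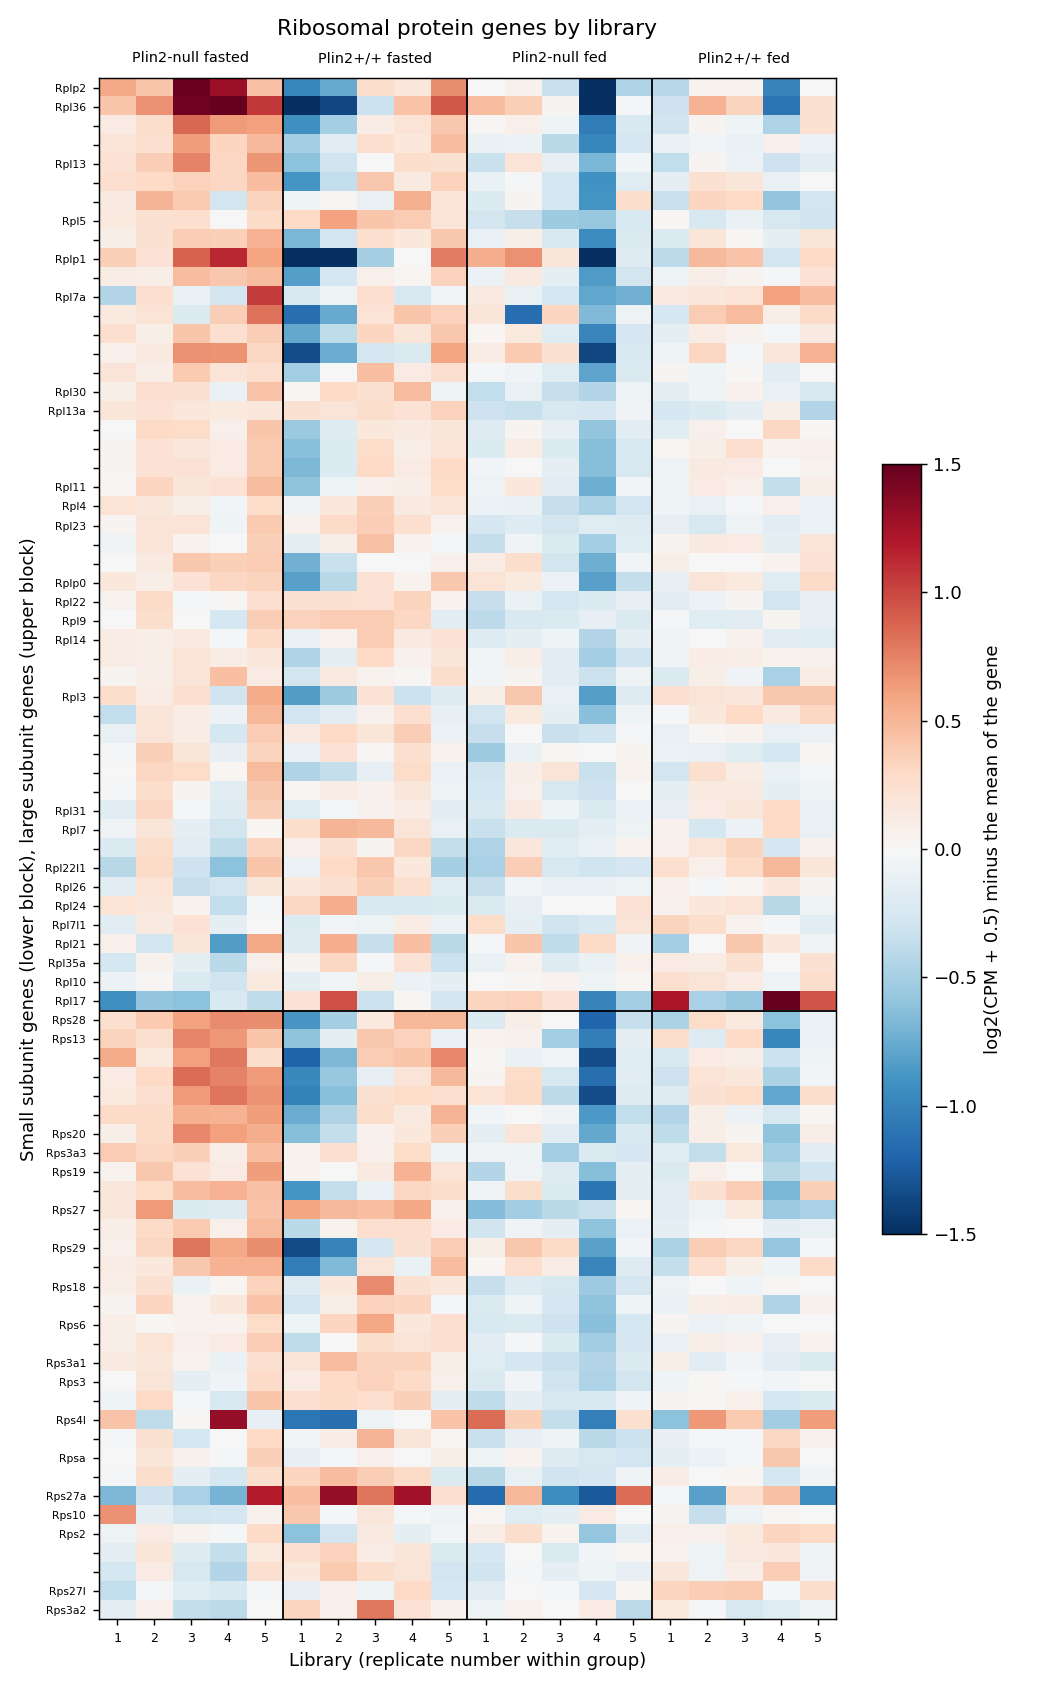
Log2(CPM + 0.5) minus the gene's mean over the 20 libraries, for 81 of the 85 members in rows (names on those described in the text, large subunit above, small below, each ordered by the fasting response in Plin2-null livers) and libraries in columns, with colours ending at 1.5 in either direction and TMM scaling. Plin2-null fed library 4 and Plin2+/+ fasted libraries 1 and 2 are low in many rows, Rplp1, Rplp2 and Rpl36 among them.

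Genotypes were next compared within each feeding state. In fasted livers no member passed edgeR's test between Plin2-null and Plin2+/+ mice (0 higher, 0 lower), where 1.51% of all genes were higher and 1.73% lower. At an unadjusted p under 0.05 there were 14 members higher and 3 lower, against 12.9% and 11.3% of all genes, or 24.3% in either direction. DESeq2 called Rpl13, a large subunit protein, higher and the pseudogene Rps3a2 lower. The median log2 fold change was 0.13 against 0.02 over all genes, and 0.02 against 0.03 without the 3 libraries of most negative GC trend. Without Plin2+/+ fasted library 5 alone, 8 members were higher and 3 lower, and without Plin2+/+ fasted library 4, 2 were higher. The shares of all genes given above are from the fit on all 20 libraries and do not apply to these counts.

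The members furthest apart in fasted livers, though not called, were Rpl36 and Rplp1 on the higher and Rps27a and Rpl17 on the lower side. Rplp1 had 78.4, 70.8, 113, 134 and 92.1 CPM in Plin2-null fasted and 13, 20.5, 43.1, 60.8 and 104 CPM in Plin2+/+ fasted livers, where libraries 1 and 2 were lowest and library 5 lay within the Plin2-null range (log2 fold change 1.02 ± 0.47 (SE), adjusted p = 0.193). Rpl36 overlapped likewise (log2 fold change 1.29 ± 0.61 (SE), adjusted p = 0.208). Rps27a, which is translated as a fusion with ubiquitin, had 47.6, 61, 54.3, 46.6 and 172 CPM in Plin2-null fasted and 104, 189.7, 133, 182 and 90.4 CPM in Plin2+/+ fasted livers. Plin2-null library 5 stood far above the other 4 of its group (log2 fold change -0.87 ± 0.47 (SE), adjusted p = 0.264). Rpl17 had 15.4 to 25.3 CPM in Plin2-null fasted and 23.6 to 58.6 CPM in Plin2+/+ fasted livers (log2 fold change -0.74 ± 0.40 (SE), adjusted p = 0.254). Shared with another gene were 81.1% of the 50-base stretches of Rpl36, 60.0% for Rplp1, 72.0% for Rps27a and 44.7% for Rpl17. The pseudogene Rpl17-ps10 held 42047 counts over the 20 libraries against 30617 on Rpl17.

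In fed livers no member was called in either direction (edgeR 0 and 0, DESeq2 0 and 0), where 0.0123% of all genes were higher and 0.00613% lower. At an unadjusted p under 0.05, 14 members were lower and 0 higher in Plin2-null livers, against 2.08% of all genes that were lower and 2.17% that were higher. The median log2 fold change was -0.18 against 0.00 over all genes, with 6 of 85 above 0 against 50.6% of all genes, and in 5 members (Rpl26, Rps6, Rps18 and Rpl7a among them) all Plin2-null libraries stood under the Plin2+/+ ones, which held for 0.454% of all genes. The median was -0.10 without Plin2-null fed library 4, whose members had the lowest median of all libraries, and -0.09 on log2(TPM + 1), where 14 of 85 were above 0 and the all-gene median was 0.07. With library size alone it was -0.10, against 0.09 over all genes.

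Rpl7a, a large subunit protein, had 45.8, 38.3, 34.6, 24 and 25.1 CPM in Plin2-null fed and 45.9, 47, 47.9, 63.6 and 57.4 CPM in Plin2+/+ fed livers. The groups did not overlap, by a narrow gap (log2 fold change -0.64 ± 0.23 (SE), adjusted p = 1.0, unadjusted p = 0.0117). Rpl17 had the lowest log2 fold change of the 85 (-0.86 ± 0.39, SE, adjusted p = 1.0), with 14.51 to 37.8 CPM in Plin2-null fed and 19.9 to 93.6 CPM in Plin2+/+ fed livers, which overlapped widely. At the upper end among members above 10 TPM stood Rpl21 (0.04 ± 0.25, adjusted p = 1.0) and Rps29 (0.07 ± 0.30, adjusted p = 1.0), neither far from 0. Rpl21 had 10.2 to 18.2 CPM in Plin2-null fed and 9.36 to 18.1 CPM in Plin2+/+ fed livers. Rps29 had 36.4 to 84.7 CPM in Plin2-null fed and 42.6 to 82.5 CPM in Plin2+/+ fed livers. Of the 50-base stretches of Rpl7a 81.2% were shared with another gene, and of those of Rpl17 44.7%.

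Rps6 (ENSMUSG00000028495), the small subunit protein that S6 kinases phosphorylate downstream of mTORC1, is a chromosomal neighbour of Plin2, so its values are given in full. In GRCm38 it lies at chr4:86854660-86857412 on the minus strand, 184.6 kb from Plin2 (chr4:86648386-86670060). Rps6 had 169, 158, 162, 162 and 189.7 CPM in Plin2-null fasted and 149, 196, 234, 175 and 187 CPM in Plin2+/+ fasted livers, which overlapped (log2 fold change -0.16 ± 0.11 (SE), adjusted p = 0.345). In fed livers it had 133, 135, 126, 101 and 131 CPM in Plin2-null and 161, 148, 152, 157 and 157 CPM in Plin2+/+ mice, all lower in Plin2-null (log2 fold change -0.30 ± 0.11 (SE), adjusted p = 1.0, unadjusted p = 0.00914). With each library's GC trend removed Rps6 was called lower in Plin2-null fasted livers (log2 fold change -0.53, adjusted p = 0.0355), as it was with GC and length trends removed together (-0.59, adjusted p = 0.0249). It rose on fasting in both genotypes, though 6 Plin2+/+ libraries, each left out alone, took the call in Plin2+/+ livers away (log2 fold changes of 0.42 ± 0.11 in Plin2-null and 0.28 ± 0.11 in Plin2+/+ livers, SE). Of its 50-base stretches 84.6% were shared with another gene. Rps20, Rpl11 and Rpl22, also on chromosome 4, lie 49358.2 kb or further from Plin2, and their fed log2 fold changes were -0.06, -0.12 and -0.09.

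Some symbols in the set belong to paralogues, related genes that can replace or accompany the main copy. Of 7 listed, Rpl22l1, Rpl7l1, Rps27l and Rps4l (a processed pseudogene in the annotation) were tested, and Rpl3l, Rpl10l and Rpl39l were not. On fasting 0 of the 4 rose in either genotype, and Rps27l fell in Plin2+/+ livers. Rpl22l1 had 9.95 to 20.9 CPM in Plin2-null fasted, 10.9 to 20.8 CPM in Plin2+/+ fasted, 10.9 to 20.3 CPM in Plin2-null fed and 16.4 to 22.1 CPM in Plin2+/+ fed livers, while its parent Rpl22 rose in both genotypes. The log2 fold change of Rpl22l1 on fasting was 0.08 ± 0.20 in Plin2-null and -0.18 ± 0.20 in Plin2+/+ livers (SE). Rps27l had a log2 fold change of -0.08 ± 0.11 in Plin2-null livers, where its parent Rps27 rose by 0.57 ± 0.17. The difference between parent and paralogue was not tested.

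Rpl7l1 had 54.5 to 70.6 CPM in Plin2-null fasted, 52.8 to 65.6 CPM in Plin2+/+ fasted, 49.5 to 73.5 CPM in Plin2-null fed and 54 to 77.1 CPM in Plin2+/+ fed livers and did not pass in any comparison. Of the 6 processed pseudogenes 5 were tested. Rps3a3 rose in Plin2-null livers (log2 fold change 0.61 ± 0.15 (SE), adjusted p = 0.00266), at 3.99 to 5.24 CPM in Plin2-null fasted and 2.44 to 3.53 CPM in Plin2-null fed livers, and its parent Rps3a1 rose too. Of the 50-base stretches of Rps3a3, 65.1% occur in another gene. Adding the counts of named pseudogenes to their parent gave 40 higher in Plin2-null and 13 higher in Plin2+/+ livers, against 39 and 12 without.

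Some ribosomal proteins have symbols that the rule does not take. Rack1, a signalling scaffold on the small subunit, and Fau, a ubiquitin-like fusion that yields a small subunit protein, rose on fasting in Plin2-null livers (0.56 ± 0.15 and 0.91 ± 0.26 on the log2 scale, SE, adjusted p = 0.0049 and 0.00892). In Plin2+/+ livers their log2 fold changes were 0.11 ± 0.15 and 0.00 ± 0.26 (adjusted p = 0.583 and 0.992). Rpl36al fell in both genotypes and had at most 2.01 CPM in a library.

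Genes of the same pathway were described from lists beside the members, and their counts are to be read against the shares of all genes that rose (18.0% in Plin2-null and 20.9% in Plin2+/+ livers) or fell (18.1% and 21.7%). These shares are from the TMM fit on all 20 libraries and do not apply to counts under other settings. Other TOP mRNAs, which encode translation factors and related proteins, rose in both genotypes: 17 of 18 in Plin2-null livers (median log2 fold change 0.56) and 15 of 18 in Plin2+/+ livers (median 0.37), with 0 lower in each. With library size alone 10 and 6 rose, in Plin2-null and in Plin2+/+ livers, with medians of 0.35 and 0.21. Without the 3 libraries of most negative GC trend 17 and 14 rose, with medians of 0.55 and 0.45. Pabpc1, the poly(A)-binding protein, rose by 0.93 ± 0.10 in Plin2-null and 0.95 ± 0.10 in Plin2+/+ livers (SE), and Npm1, a nucleolar chaperone, by 0.84 ± 0.10 and 1.00 ± 0.10. Eif4b, an initiation factor, rose by 0.68 ± 0.08 in Plin2-null and 0.77 ± 0.08 in Plin2+/+ livers. Ribosome biogenesis factors had 25 of 41 higher in Plin2-null and 16 of 41 higher in Plin2+/+ livers, with 0 lower in each and medians of 0.55 and 0.32, which were 0.32 and 0.16 with library size alone. Without the 3 libraries 20 rose in Plin2-null and 19 in Plin2+/+ livers, with medians of 0.48 and 0.41, and the median interaction was 0.03 against 0.10 with them. Ncl, nucleolin, rose by 0.71 ± 0.12 in Plin2-null and 0.70 ± 0.12 in Plin2+/+ livers, and Eif6, which keeps the large subunit from joining too early, by 1.09 ± 0.15 in Plin2-null livers.

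Of 20 genes of mTORC1 signalling, 7 rose and 4 fell in each genotype, while with library size alone 4 rose and 6 fell in Plin2-null and 5 rose and 4 fell in Plin2+/+ livers. The share that fell, 4 of 20, was about that of all genes. Without the 3 libraries 7 rose and 5 fell in Plin2-null and 8 rose and 3 fell in Plin2+/+ livers. Mtor, the kinase itself, rose by 0.71 ± 0.11 in Plin2-null and 0.60 ± 0.11 in Plin2+/+ livers. Larp1, which binds the TOP tract, fell in Plin2-null livers (log2 fold change -0.30 ± 0.10 (SE), adjusted p = 0.018) and had -0.20 ± 0.10 in Plin2+/+ livers (adjusted p = 0.0966). Eif4ebp1, a repressor of cap-dependent translation, rose in both (log2 fold change 1.05 ± 0.22 in Plin2-null and 0.63 ± 0.22 in Plin2+/+ livers), and Eif4ebp3, another member of that family, rose too (4.39 ± 0.74 in Plin2-null and 4.85 ± 0.75 in Plin2+/+ livers). Rps6kb1, an S6 kinase, did not pass in any comparison. Of 6 tested genes for factors tied to ribosomal protein gene transcription, 3 rose in Plin2+/+ livers (Myc, Yy1 and Gabpa) and 0 in Plin2-null livers. The log2 fold change was above 0 in 6 of 6 in Plin2+/+ (median 0.32) and in 4 of 6 in Plin2-null livers (median 0.08). The interaction was called for 0 of the 6, so a difference between genotypes is not shown. Values of this list without the 3 libraries were not taken. Myc had 11.8, 3.09, 6.76, 4.05 and 6.17 CPM in Plin2-null fasted, 4.48, 5.92, 9.59, 5.44 and 8.13 CPM in Plin2+/+ fasted, 1.49, 5.43, 5.28, 1.36 and 2.59 CPM in Plin2-null fed and 1.14, 1.79, 1.85, 2.36 and 1.49 CPM in Plin2+/+ fed livers, and its interaction did not pass (edgeR, adjusted p = 0.412).

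Lists outside cytosolic translation were set beside the members. Nuclear genes for oxidative phosphorylation subunits rose in 36 of 74 in Plin2-null livers (median 0.40, 0 lower) and in 12 of 74 in Plin2+/+ livers (median 0.03, 3 lower), with a median interaction of 0.33. With library size alone the medians were 0.18 in Plin2-null and -0.14 in Plin2+/+ livers, with 11 and 3 higher. Without the 3 libraries of most negative GC trend 38 rose in Plin2-null (median 0.32) and 17 rose and 1 fell in Plin2+/+ livers (median 0.15), and the median interaction was 0.18. The 12 of 74 that rose in Plin2+/+ livers stand beside 20.9% of all genes. Mitochondrial ribosomal proteins rose in 32 of 77 in Plin2-null livers (median 0.26, 1 lower) and in 16 of 77 in Plin2+/+ livers (median 0.09, 6 lower), with a median interaction of 0.20. With library size alone their medians were 0.04 and -0.08, and on log2(TPM + 1) -0.03 and -0.06, so their direction depends on the scaling. Without the 3 libraries 28 rose in Plin2-null and 21 in Plin2+/+ livers, and the median interaction was 0.08. The 16 of 77 that rose in Plin2+/+ livers are about the share of all genes, 20.9%. The interaction was called for 0 genes of either list.

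**Figure D5:**
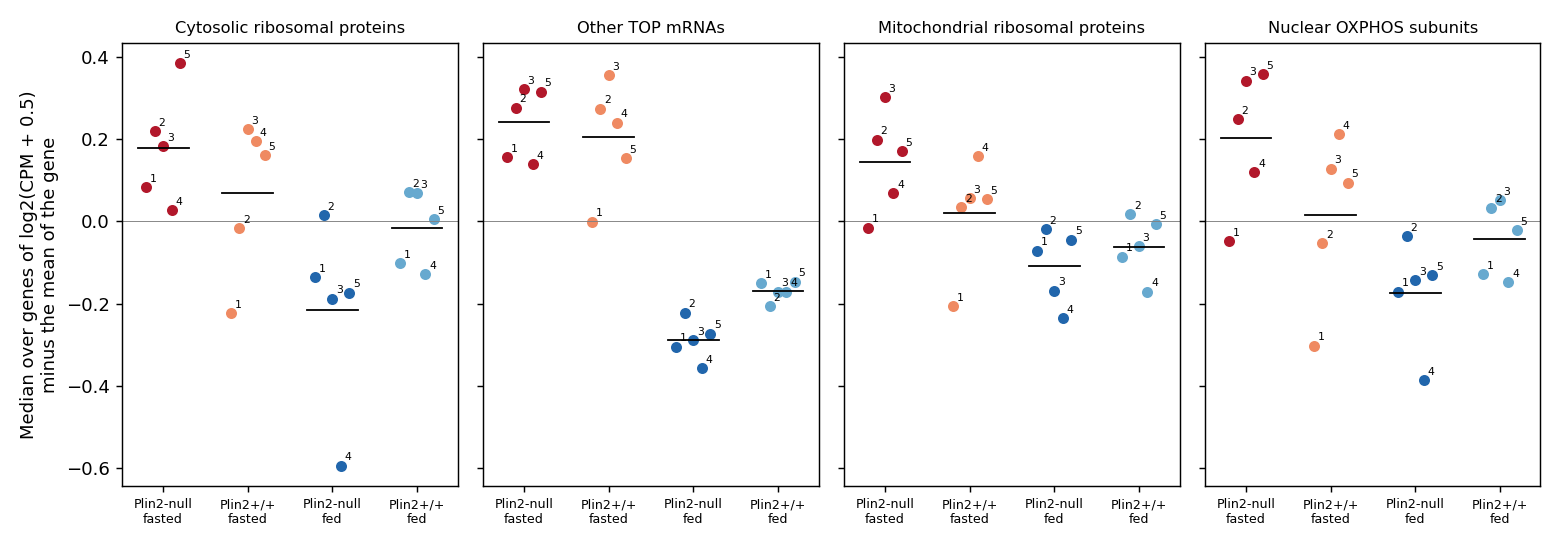
Median over the genes of 4 lists of log2(CPM + 0.5) minus the gene's mean, TMM-scaled, for each library (numbered by replicate) with group means as lines. In the cytosolic ribosomal proteins Plin2-null fed library 4 is lowest at -0.59 and Plin2-null fasted library 5 highest at 0.38; the other TOP mRNAs separate fasted from fed libraries in both genotypes.

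By library, the median deviation of the cytosolic ribosomal proteins was 0.08, 0.22, 0.18, 0.03 and 0.38 in Plin2-null fasted, -0.22, -0.02, 0.22, 0.20 and 0.16 in Plin2+/+ fasted, -0.14, 0.01, -0.19, -0.59 and -0.17 in Plin2-null fed and -0.10, 0.07, 0.07, -0.13 and 0.00 in Plin2+/+ fed livers on the log2 scale. Every Plin2-null fasted library was above every Plin2-null fed library, while the Plin2+/+ groups overlapped through fasted libraries 1 and 2. Leaving out the 3 libraries whose values fell most with GC content, members in Plin2+/+ livers had a median log2 fold change of 0.22, with 66 of 85 above 0, and those in Plin2-null livers 0.32. The members' medians in these libraries were the lowest of their groups, so leaving them out brings the responses of the genotypes closer in any case. How much of the difference between genotypes belongs to these libraries was not tested beyond these values.

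Cell type markers were counted in the same comparisons, in which 18.1% of all genes fell in Plin2-null and 21.7% in Plin2+/+ livers. Of 12 Kupffer cell and macrophage markers 6 fell in Plin2-null and 8 fell in Plin2+/+ livers, with 0 higher, and their summed CPM ran 417 to 549 in Plin2-null fasted, 299 to 521 in Plin2+/+ fasted, 429.9 to 1021 in Plin2-null fed and 525 to 709.8 in Plin2+/+ fed livers. Lymphocyte markers fell in 1 of 11 and 5 of 11, stellate cell markers in 4 of 7 and 4 of 7, and cholangiocyte markers in 1 of 5 and 3 of 5, in Plin2-null and in Plin2+/+ livers. Of these, the lymphocyte and cholangiocyte counts in Plin2-null livers lie near or below the share of all genes. Of the hepatocyte markers 2 rose and 2 fell in Plin2-null and 4 rose and 2 fell in Plin2+/+ livers, at summed CPM of 87026 to 123795 in Plin2-null fasted, 113664 to 173170.0 in Plin2+/+ fasted, 92319.9 to 110723 in Plin2-null fed and 96884 to 148637 in Plin2+/+ fed livers. Of 7 endothelial markers 2 rose and 1 fell in Plin2-null and 2 rose and 2 fell in Plin2+/+ livers, and of 5 erythroid markers 1 fell in each. The 2 acinar markers tested, Cela1 and Cela2a, fell in each genotype, and Ctrb1, Cpa1 and Prss2 were at 0 in 18, 18 and 19 libraries. The adipocyte markers Lep, Retn and Cfd were at 0 in all 20. Adipoq and Plin1 were at 0 in 8 and 13. The part of these cell types in the ribosomal protein results was not tested.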

How the data were processed

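Liver RNA went into strand-specific mRNA libraries, according to the labels' protocols. Raw counts per Ensembl mouse gene and TPM values were deposited by the authors. Over 7108 genes with counts of at least 200 everywhere, count divided by TPM varied between libraries by a relative SD no higher than 1.05e-09 after a factor per library, and the TPM header stands 1 cell left of its values, with all 20 columns following their own counts. Per the submitters' processing notes the tools were HISAT2 1.2.1 and featureCounts 1.4.6-p1 and the build GRCh38, although the identifiers are mouse. The sources used here do not say how multimapping reads and strand were counted. Reads shared with pseudogenes, overlapping genes or antisense genes are therefore uncertain.

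All 89 symbols matched an Ensembl gene. Gene positions, transcripts and base composition were read from GENCODE M21 (GRCm38), and promoters from RefSeq (GRCm38.p6), which held 64 of the 89.

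The counts were fitted in R 4.3.3 using edgeR 4.0.16 (filterByExpr, TMM, robust quasi-likelihood, 1 coefficient per group over all 20 libraries). P-values were adjusted over the 16312 genes tested, at a threshold of 0.05. The SE was taken as |log2 fold change| divided by √F, and CPM are TMM-scaled. Library totals ran from 25506471 to 65579038 counts. Alternatives were DESeq2 1.42.0, limma 3.58.1 on log2(TPM + 1) and log2(TPM + 0.1), RLE factors, plain library size, 2 other filters on low counts, the compared groups alone, removal of each library's GC or length trend, the ribosomal RNA-like share as covariate, pseudogene counts summed with their parents, and leaving out each library. Removing both trends together, and leaving out the 3 libraries of most negative GC trend, were added after seeing the data. On simulated counts for fasting in Plin2+/+ livers (16155 genes), 43.1% of 65 genes changed 1.5-fold were recovered, 65.2% of 66 changed 2-fold and 89.4% of 66 changed 4-fold, with 8 false calls.

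Members and lists were chosen with earlier results of these data known. Values were given, per comparison, for the 4 largest and 4 smallest log2 fold changes among called members averaging at least 10 TPM (where none was called, the 2 largest and 2 smallest), for the paralogues and Rps6, and for the 3 highest and 3 lowest levels above 10 TPM. Listed genes were named from the 4 smallest p-values of their list, with Mtor, Larp1, Myc, Rps6kb1, Eif4ebp1, Eif4ebp3, Fau and Rack1. Other members were named after their values were seen, for their spread, their shared sequence or a call under 1 setting. A few members and related genes are not reported here by name, though counts and medians include them. Figures were drawn with matplotlib 3.10.9.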

Additional observations from a re-analysis of the deposited data

Results flagged for a closer look

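In each group of 5, the library furthest out was set against the range of its group for 27 of the 29 members with values by rule, the summed member TPM and the ratio of large to small subunit TPM, 116 groups in all. In 4 of them the gap to the nearest other library exceeded 0.71 of the range (Dixon's 95% critical value), and chance alone gives about 1 in 20. Rps27a was at 172.5 CPM in 1 Plin2-null fasted library, with the other 4 between 46.58 and 61.05 CPM. Rps6 was at 101.3 CPM in Plin2-null fed library 4, with the others between 126 and 135.1 CPM. Rpl22l1 was at 20.26 CPM in 1 Plin2-null fed library, with the others between 10.94 and 13.06 CPM. Rpl9 was at 97.29 CPM in 1 Plin2+/+ fasted library, with the others between 134.3 and 141.6 CPM.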

How the results depend on the processing

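For fasting in Plin2-null livers (39 members higher, 0 lower), the count of higher members was 4 with library size alone, 2 on log2(TPM + 1) and 2 on log2(TPM + 0.1), and the count of lower members was 3 on each TPM scale; leaving out single libraries gave 30 to 47 higher and 0 lower. For fasting in Plin2+/+ livers (12 higher, 3 lower), the count of higher members was 2 with library size alone, 7 without a filter, 7 with a stricter filter, 1 on log2(TPM + 1), 1 on log2(TPM + 0.1), 19 with length trends removed and 19 without the 3 libraries of most negative GC trend, where 0 were lower; leaving out single libraries gave 7 to 17 higher and 0 to 3 lower. For genotype in fasted livers (0 and 0), DESeq2 gave 1 higher and 1 lower, and the count of lower members was 1 with GC trends, 4 with length trends and 2 with both removed; leaving out single libraries gave 0 to 8 higher and 0 to 3 lower. Genotype in fed livers and the interaction stayed at 0 and 0 under each alternative, single libraries left out included. Shares of all genes called were taken from the main fit alone, so member counts under the alternatives have none beside them. The cause of these changes was not tested, apart from the scalings, which move the median of all genes. Over the 29 members with values by rule, 3576 alternative values kept their side of the threshold, 124 lost and 41 gained a call, and 0 changed sign while called. The kept values span all comparisons and include those called in neither fit. Losses can come only from the fasting comparisons, as no member was called in the others. These counts therefore do not give the rate at which calls were lost. No paired analysis was possible because the replicate numbers were given in accession order and the titles number all 20 libraries differently. The 4 members not tested had few counts, at most 6 in a library (Rpl3l). Whether depth limited these members or the pseudogenes was not tested. The interaction was not fitted on the compared groups alone.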
